A study of Mus musculus with 103 samples.

Results

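The 94 mouse genes described here encode subunits of voltage-gated and related ion channels, and they were measured across RNA of 8 tissues. They were chosen by symbol, as every gene whose probe set carried 1 symbol with the root of a potassium channel (Kcn), a sodium channel (Scn followed by a number) or a voltage-gated calcium channel (Cacna, Cacnb or Cacng). The rule took 137 of 22626 probe sets and 94 of 12393 genes. By root, 20 genes encode voltage-gated potassium pores, 13 inward rectifier pores, 8 pores with 2 pore domains, 6 pores of the calcium-activated group by symbol (Kcnma, Kcnn and Kcnu), and 15 auxiliary subunits of potassium channels. Among the others, 8 encode sodium channel pores and 1 (Scn3b) a sodium channel beta subunit, while 9 encode calcium channel alpha1 pores, 3 alpha2delta, 3 beta and 8 gamma subunits. A gene with several probe sets (33 genes) is given by the probe set that was brightest over the tissue arrays.

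Ion channels are membrane proteins that let one kind of ion pass when voltage, a ligand, calcium or stretch opens them. Sodium and calcium pores depolarise a cell and start action potentials, secretion or contraction, potassium pores bring the membrane back or hold it at rest, and auxiliary subunits set where a pore goes and how fast it opens and closes. Neurons use fast sodium and potassium channels, cardiac muscle relies on L-type calcium channels and several repolarising potassium currents, and kidney tubules use inward rectifiers to return potassium to the lumen.

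The study compared ways of labelling small amounts of RNA on 103 Affymetrix mouse arrays. The tissue set had 16 arrays of a commercial panel (Ambion Mouse Total RNA Tissue Panel), with the labels liver, heart, kidney, brain, embryo, lung, ovary and spleen, and 2 arrays a tissue. One array of each pair held biotinylated cDNA made by the BIIB protocol of Biogen Idec from 500 pg of RNA, and the other biotinylated cRNA made with the Affymetrix one-cycle kit from 1 ug. Of the other arrays, 8 of a pooled RNA (Stratagene Mouse Universal Total RNA), 4 by each of these protocols at these inputs, were used to see what the protocol does to the same genes. The labels gave no strain, sex, age, genotype or treatment. They gave no sign that the arrays of a tissue came from separate animals, so p-values measure the spread between these arrays only. In the tissue set, with 1 array per tissue and protocol, this spread includes any difference between the protocols that varied from tissue to tissue. In whole tissue RNA, fewer cells of a type and less RNA per cell cannot be told apart.

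The labels liver and brain went against the marker genes, and the arrays are therefore called by their labels throughout. All 13 measured markers of neurons and glia were brightest on the arrays labelled liver with both protocols, and their summed signal was 710175 (BIIB) and 412986 (one-cycle) there, against 933 and 1981 on the arrays labelled brain. All 14 hepatocyte markers were brightest on the arrays labelled brain, with sums of 5879135 and 3486040, against 194019 and 147570 on the arrays labelled liver, where 1 gene, Ttr, made up 191508 and 145954 of the sum and the other 13 summed to 2511 and 1616. The heart, kidney, lung and ovary labels fitted their markers, with 9 of 9 cardiomyocyte, 9 of 9 kidney epithelium, 6 of 6 lung epithelium and 8 of 8 ovary markers brightest there with both protocols. In spleen 6 of 7 lymphoid markers were brightest. The embryo held the highest signal of 6 of 7 skeletal muscle markers.

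Promoter windows are shown for 6 genes that stand for the 3 patterns described below. They are all 3 genes called higher in kidney, and the highest-ranked genes with a single listed start among those higher on the arrays labelled liver (Scn1a and Kcnj9) and in heart (Cacna2d1). Each is the 250 bases before the transcript start that the RefSeq table (GRCm38.p6) lists, on the strand of the gene and 5′ to 3′, with CG dinucleotides in capitals. For Kcnj1 and Cacna2d1 that start lies inside the span of the gene, 21567 and 427 bases from its outer edge, so these 2 windows are not upstream of the whole gene. The windows are chr2:66440838-66441087 (minus strand) for Scn1a, chr1:172329323-172329572 (minus) for Kcnj9, chr5:15934441-15934690 (plus) for Cacna2d1, chr9:32393735-32393984 (plus) for Kcnj1, chr16:95257308-95257557 (plus) for Kcnj15 and chr14:20181783-20182032 (minus) for Kcnk5.
Scn1a: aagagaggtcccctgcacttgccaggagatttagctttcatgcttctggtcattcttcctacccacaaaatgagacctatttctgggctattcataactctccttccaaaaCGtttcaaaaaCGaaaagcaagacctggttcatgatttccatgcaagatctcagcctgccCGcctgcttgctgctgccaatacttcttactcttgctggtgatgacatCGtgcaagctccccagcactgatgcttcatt
Kcnj9: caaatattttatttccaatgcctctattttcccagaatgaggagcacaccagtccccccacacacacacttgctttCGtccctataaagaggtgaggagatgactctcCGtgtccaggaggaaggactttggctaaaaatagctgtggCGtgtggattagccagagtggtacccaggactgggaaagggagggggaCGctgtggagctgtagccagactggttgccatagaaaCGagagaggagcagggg
Cacna2d1: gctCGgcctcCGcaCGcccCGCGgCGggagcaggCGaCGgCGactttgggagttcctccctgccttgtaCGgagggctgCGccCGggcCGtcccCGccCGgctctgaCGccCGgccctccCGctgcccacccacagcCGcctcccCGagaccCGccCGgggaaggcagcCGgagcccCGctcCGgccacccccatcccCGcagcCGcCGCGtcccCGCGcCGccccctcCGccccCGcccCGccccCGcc
Kcnj1: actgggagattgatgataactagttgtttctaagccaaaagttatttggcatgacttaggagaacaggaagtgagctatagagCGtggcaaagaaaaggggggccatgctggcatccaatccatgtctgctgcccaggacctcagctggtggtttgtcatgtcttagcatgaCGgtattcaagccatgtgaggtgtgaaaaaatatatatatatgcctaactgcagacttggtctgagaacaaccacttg
Kcnj15: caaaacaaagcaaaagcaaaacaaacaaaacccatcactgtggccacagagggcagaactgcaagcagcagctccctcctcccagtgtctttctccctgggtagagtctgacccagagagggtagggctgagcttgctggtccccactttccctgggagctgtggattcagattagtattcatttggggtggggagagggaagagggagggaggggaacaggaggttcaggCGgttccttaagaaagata
Kcnk5: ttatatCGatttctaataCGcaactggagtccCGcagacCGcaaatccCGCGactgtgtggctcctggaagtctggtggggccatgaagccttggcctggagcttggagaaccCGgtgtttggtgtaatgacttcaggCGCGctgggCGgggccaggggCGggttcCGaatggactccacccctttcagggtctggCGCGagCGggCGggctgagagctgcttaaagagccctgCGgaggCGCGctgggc
These windows ran from 1 CG dinucleotide in Kcnj15 and 2 in Kcnj1 to 19 in Kcnk5 and 36 in Cacna2d1, with 4 in Scn1a and 5 in Kcnj9. Their GC content was 53.2%, 44.8%, 62.8%, 82.4%, 46.8% and 52.0% in that order of genes. Kcnj15, Kcnj1 and Scn1a thus had few CG dinucleotides, while Kcnk5 and Cacna2d1 had many.

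Of the 94 genes, 75 had a RefSeq window, and 42 of these had only starts inside the span of the gene. Their median GC content was 58.8% and their median number of CG dinucleotides 9, against 52.4% and 6 over all 27025 genes with a window. A gene with several listed starts was given the mean over its windows. It counted as holding a motif if any window did, so more starts gave more chances of a match. The letters GGGCGG, searched on both strands, occurred in 45 of the 75 genes (60.0%), against 35.4% of all genes with a window. CCAAT, also on both strands, occurred in 34.7%, against 37.5%. TATAAA, on both strands, occurred in 3 genes (4.0%), among them Kcnj9 with the window above, against 14.3%. Of the 33 genes with a window among those higher on the arrays labelled liver, 23 (69.7%) held GGGCGG. Of the 12 such genes higher in heart, 8 (66.7%) did, as did 1 of the 3 higher in kidney (33.3%). These are matches of letters in a fixed window, with no test, and none of them is known from these data to be a binding site.

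Of the 94 genes, 66 (70.2%) were called higher in at least 1 tissue against the mean of the other 7, and 51 (54.3%) in exactly 1, while 50.6% and 33.4% of all probe sets were. Genes are given by their brightest probe set and the background counts every probe set, so the difference between these shares was not tested. A call needed a Benjamini-Hochberg adjusted p under 0.05 over all 22626 probe sets and a change of at least 2-fold in a limma fit of log2(signal + c) with the protocol as a term, where c was a constant of 5% of the common level of the arrays (their trimmed mean of 2501 signal units). Higher calls numbered 41 on the arrays labelled liver, where 12.5% of all probe sets were called higher, and 15 in heart (8.17%), 3 in kidney (7.81%), 1 on the arrays labelled brain (7.96%), 7 in embryo (8.41%), 7 in lung (8.96%), 6 in ovary (6.68%) and 2 in spleen (11.5%). As a share of the 94 genes, the arrays labelled liver and heart lay above their background, and kidney, the arrays labelled brain and spleen lay below it.

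**Figure D1:**
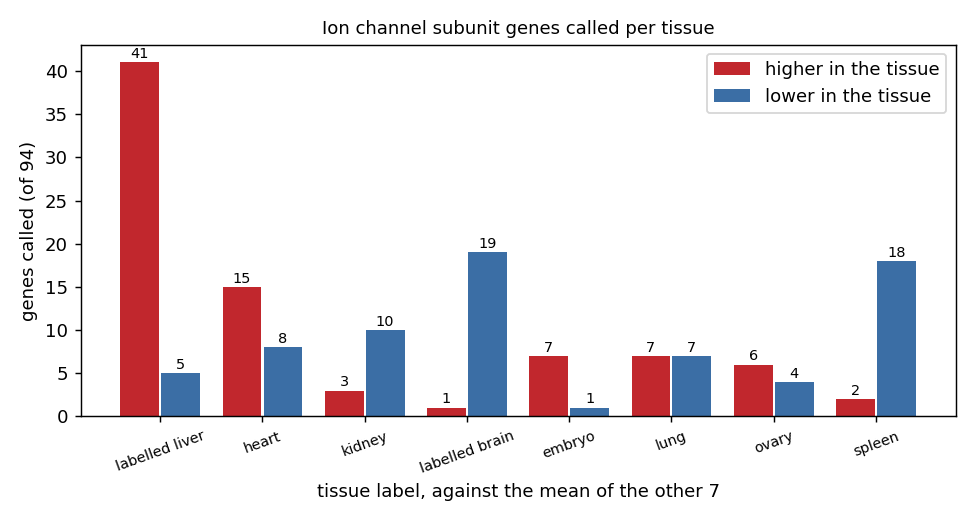
Number of the 94 ion channel subunit genes called higher (red) and lower (blue) in each tissue label against the mean of the other 7 tissues. The arrays labelled liver had 41 higher calls and heart 15, where 12.5% and 8.17% of all probe sets were called higher. The arrays labelled brain and spleen had 19 and 18 lower calls, where 16.4% and 13.4% of all probe sets were called lower.

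Lower calls numbered 5 on the arrays labelled liver (13.3% of all probe sets were called lower), 8 in heart (7.97%), 10 in kidney (8.09%), 19 on the arrays labelled brain (16.4%), 1 in embryo (3.8%), 7 in lung (5.92%), 4 in ovary (4.08%) and 18 in spleen (13.4%). A gene that is bright in 1 tissue raises the mean of the others for each remaining tissue, so a lower call can rest on that tissue alone. Lower calls also became fewer in most tissues when 1 array of the tissue was left out. This leaves the tissue with 1 array and widens the SE, so fewer calls alone do not show that the 2 arrays disagreed. Without the BIIB or without the one-cycle array of the tissue itself, they numbered 2 and 1 on the arrays labelled liver, 1 and 1 in heart, 3 and 4 in kidney, 9 and 7 on the arrays labelled brain, 0 and 1 in lung, 0 and 2 in ovary and 9 and 8 in spleen. With the 4 arrays labelled liver and brain left out, the lower calls were 5 in heart, 8 in kidney, 2 in lung, 2 in ovary and 15 in spleen. The median log2 change of the 94 genes was 1.01 on the arrays labelled liver, against -0.0917 over all probe sets, and 0.0611 in heart, against -0.0463. In kidney it was -0.37, against -0.0868.

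**Figure D2:**
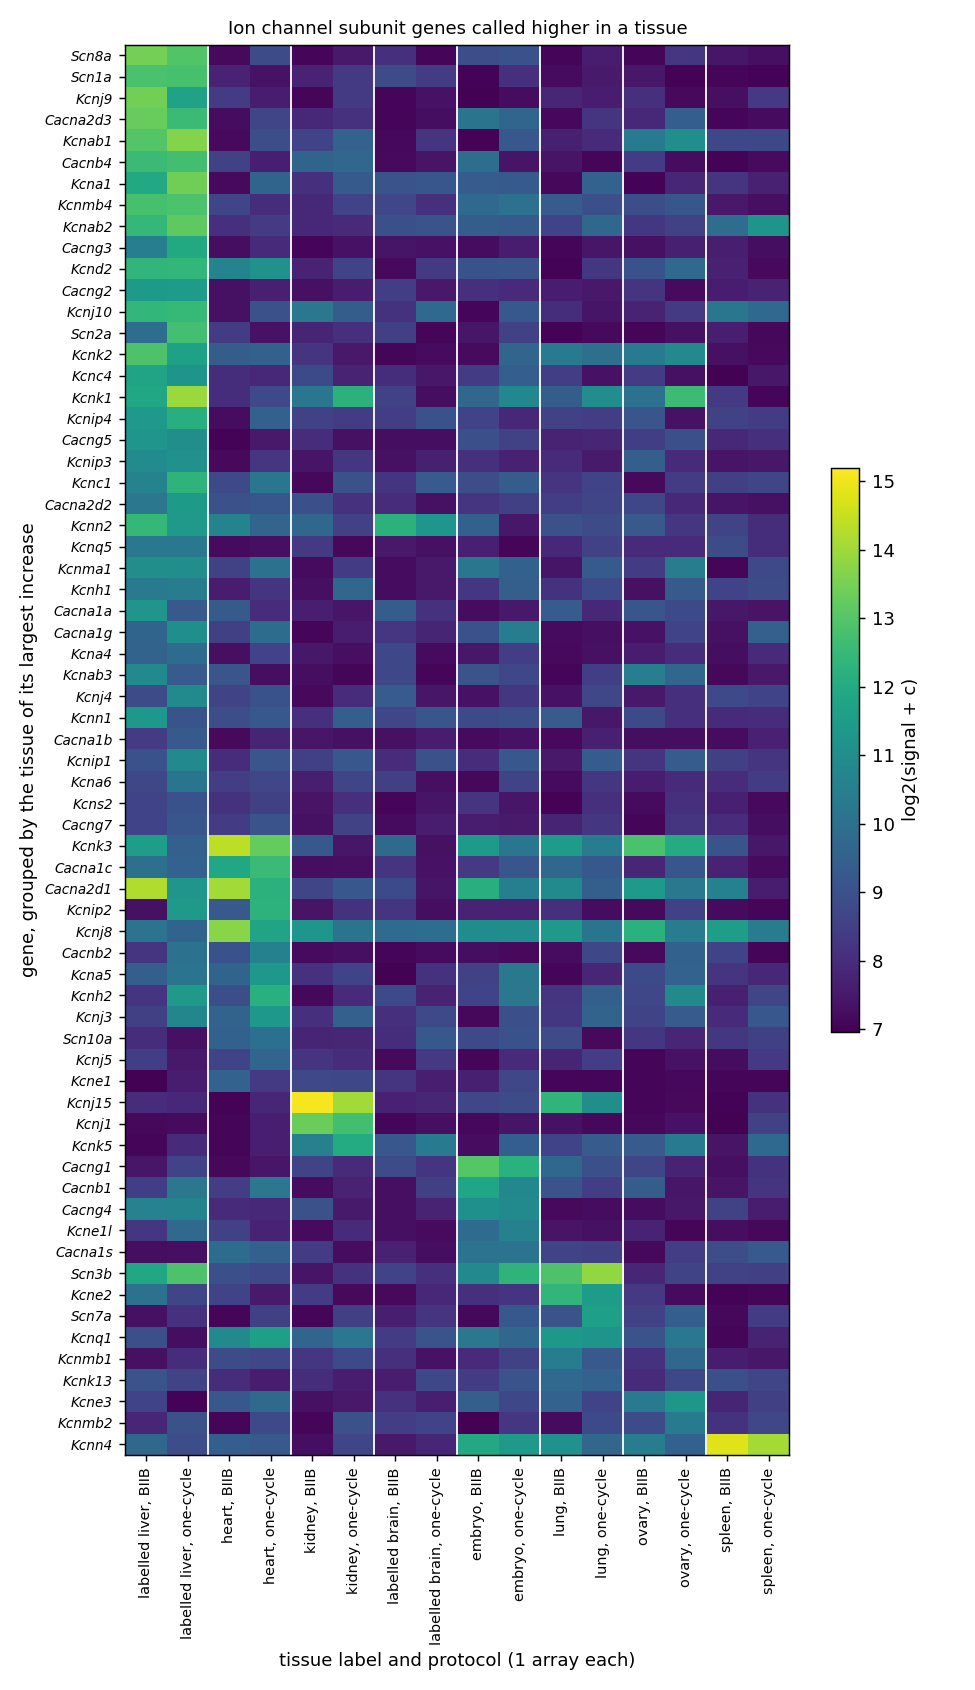
Heat map of log2(signal + c), c being the constant of the fit, for the 66 ion channel subunit genes called higher in at least 1 tissue, 1 row a gene and 1 column an array, with rows grouped by the tissue of the largest increase. The upper block, bright on both arrays labelled liver, is the longest. Kcnd2 in this block was called higher in heart as well, and Cacna2d1 in the heart block on the arrays labelled liver as well.

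Many channel genes known from neurons were high on the arrays labelled liver. Called higher there were 3 of 8 sodium channel pores, 3 of 3 alpha2delta and 5 of 8 gamma subunits. So were 9 of 20 voltage-gated potassium pores (1 lower) and 8 of 15 potassium channel auxiliary subunits. The calcium-activated group had 3 of 6, alpha1 pores 3 of 9 (1 lower) and beta subunits 1 of 3, and Scn3b was higher too. Shares were smallest for inward rectifiers (3 of 13, with 2 lower) and 2-pore-domain pores (2 of 8, with 1 lower). For 28 of the 94 genes both arrays exceeded all 14 others, against 5.98% of all probe sets.

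Scn8a, a sodium channel pore of nodes of Ranvier and axon initial segments, had 11221 (BIIB) and 7936 (one-cycle) on the arrays labelled liver, against a lowest, median and highest of 10.0, 55.5 and 406 on the other 14 arrays. The groups lay far apart, and the log2 change was 5.47 ± 0.46 (SE, adjusted p = 6.86e-09). Scn1a, the main sodium pore of fast-spiking inhibitory neurons, had 7221 and 7095 there, against 6.20, 58.9 and 342, for a log2 change of 5.18 ± 0.41 (adjusted p = 2.48e-09). Scn2a, a sodium pore of excitatory neurons and their axons, had 852 with BIIB and 6757 with one-cycle, against 8.50, 47.0 and 260. Both of its values were above all others, but they lay far apart from each other, and its log2 change was 3.70 ± 0.54 (adjusted p = 1.29e-05). Scn3a had at most 263 on any array and was not called (log2 change -0.10, adjusted p = 0.871).

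Several kinds of potassium pore followed. Kcnj9, a subunit of G-protein-gated inward rectifiers, had 10943 and 3195 on the arrays labelled liver, against 5.0, 57.4 and 211 on the others (log2 change 4.95 ± 0.48, adjusted p = 4.37e-08). Kcnj10, the inward rectifier of astrocytes, had 5337 and 5541, against 11.6, 296 and 1081 (3.74 ± 0.53, adjusted p = 8.33e-06). These 2 genes are neighbours on chromosome 1 with no protein-coding gene between them. Kcna1, a delayed rectifier of axons, had 3913 and 10898, against 7.80, 297 and 659 (4.23 ± 0.52, adjusted p = 1.41e-06). Kcnd2, the pore of the somatodendritic A-type current, had 5197 and 5406 there, against a highest value of 2128 elsewhere, which was a heart array (3.77 ± 0.43, adjusted p = 5.71e-07).

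Kcnc4, a pore of fast high-threshold potassium currents, had 3357 and 2257, against at most 566 (log2 change 3.49 ± 0.45). Kcnk2, a pore that responds to stretch and lipids, had 7546 and 3180, against at most 1691, an ovary array (3.59 ± 0.51). Both genes stood above all other arrays. Kcnk1, a 2-pore-domain leak pore, was the exception among the 20 largest increases, since its BIIB value of 3650 lay below the highest value elsewhere, 6102 on the one-cycle ovary array, while its one-cycle value was 15738 (3.33 ± 0.57, adjusted p = 8.48e-05).

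Auxiliary subunits of potassium channels were high as well. Kcnab1 and Kcnab2, cytoplasmic beta subunits of Kcna pores, had 7971 and 12979, and 5520 and 9007, on the arrays labelled liver, against at most 2031 and 2250 elsewhere (log2 changes 4.72 ± 0.44 and 3.85 ± 0.41). Kcnmb4, the beta subunit that shapes large-conductance calcium-activated channels in neurons, had 6976 and 7305, against at most 956 (4.17 ± 0.41, adjusted p = 7.13e-08). Kcnip3 and Kcnip4, calcium-binding partners of Kcnd pores, had 1845 and 2112, and 2588 and 4371, against at most 571 and 613 (3.19 ± 0.44 and 3.32 ± 0.54). For all 5 genes every value on the arrays labelled liver exceeded every other value.

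Among calcium channel genes the largest increases were in auxiliary subunits. Cacna2d3, an alpha2delta subunit that carries pores to the surface, had 9855 and 6055, against 13.4, 114 and 991 (log2 change 4.85 ± 0.47, adjusted p = 4.23e-08). Cacnb4, a cytoplasmic beta subunit, had 5929 and 6547, against 7.30, 45.5 and 854 (4.64 ± 0.48, adjusted p = 1.43e-07). Cacng2, Cacng3 and Cacng5 belong to the gamma family, whose neuronal members bind AMPA glutamate receptors. They had 2656 and 2734, 1305 and 3854, and 2332 and 1984, against at most 228, 127 and 380 (3.75 ± 0.39, 3.80 ± 0.37 and 3.22 ± 0.39). The log2 changes of the pores were smaller. Cacna1a, the P/Q-type pore of nerve terminals, had 2345 and 485, against at most 535 (2.06 ± 0.45), and Cacna1b, the N-type pore, 221 and 489, against at most 101 (1.45 ± 0.32). Cacna1e, another neuronal pore, had 14.3 and 38.9 there and was not called (-0.41, adjusted p = 0.479).

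**Figure D3:**
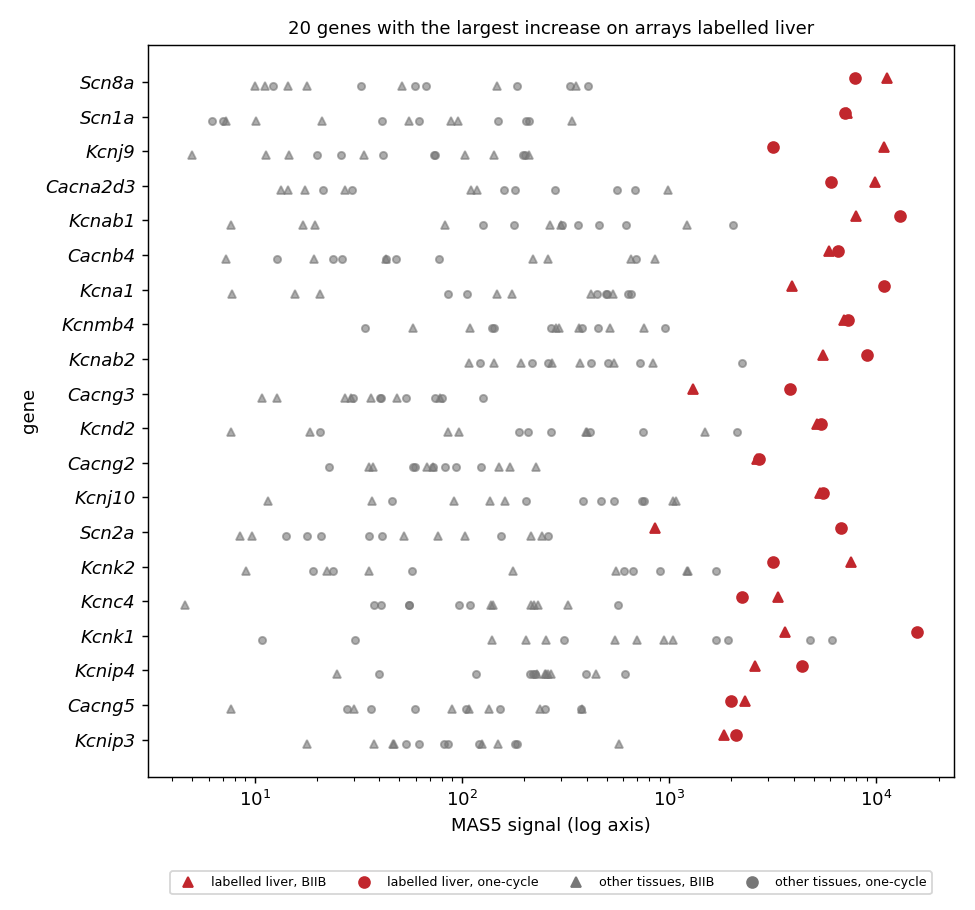
MAS5 signal on a logarithmic axis for the 20 genes with the largest increase on the arrays labelled liver, 1 row a gene, with the arrays labelled liver in red and the 14 others in grey (triangles BIIB, circles one-cycle). The red points lie to the right of all grey points in every row but that of Kcnk1, whose BIIB value of 3650 falls below 6102.

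None of these 20 genes lost its call when either array labelled liver was left out. Of the other 21, Cacna1a, Cacna2d1, Kcnab3, Kcnh1, Kcnma1 and Kcnn1 lost it without the BIIB array, Cacna1b, Cacna1g, Kcna6, Kcnip1, Kcnj4 and Kcne1l without the one-cycle array, and Kcns2 and Cacng7 without either. Kcnn1, a small-conductance calcium-activated pore, had 2483 and 420, and its log2 change was 1.57 with both arrays and 0.46 without the BIIB one (adjusted p = 0.733). Cacna2d2 was called higher by its brightest probe set (2.57 ± 0.44), while its other 2 probe sets changed by -0.65 and -0.49 and were not called. Some genes of the brain list were not called on these arrays. Kcna2 had 6.20 with BIIB and 1045 with one-cycle (0.63, adjusted p = 0.358), Kcnj6 8.80 and 303 (-0.12, adjusted p = 0.861), and Cacng8 25.5 and 341 (0.18, adjusted p = 0.803).

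Lower on the arrays labelled liver were 5 genes: Kcnk5, Kcnq1, Cacna1s, Kcnj15 and Kcnj8, with log2 changes of -1.64, -1.63, -1.36, -1.34 and -1.21. Kcnq1, a delayed rectifier of heart and epithelia, had 378 and 29.6, against a median of 886 and a highest of 3055. Its 2 arrays differed, and without the one-cycle array the change was -0.56 (adjusted p = 0.568). Kcnj8 had 978 and 656, against 801, 1913 and 13628, so that it lay at or below the low end of the others. Each of the 5 lost its call when 1 of these arrays was left out.

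Heart had 15 higher genes. They include the L-type calcium channel with its alpha2delta and beta subunits, pores of the transient outward, rapid and slow repolarising currents with 2 auxiliary subunits, the ATP-sensitive and acetylcholine-activated inward rectifiers and the leak pore Kcnk3. For 4 of the 94 genes (Kcnk3, Cacna1c, Kcnj5 and Scn10a) both heart arrays exceeded all 14 others, against 3.11% of all probe sets.

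Kcnk3, an acid-sensitive leak pore, had 21405 (BIIB) and 9650 (one-cycle) in heart, against a lowest, median and highest of 37.5, 907 and 7170 elsewhere. Both heart values were above all others, of which the highest was an ovary array, and the log2 change was 3.83 ± 0.34 (adjusted p = 2.69e-08). Cacna1c, the L-type calcium pore of the heart, had 3654 and 6012, against 23.5, 187 and 897 (3.79 ± 0.46, adjusted p = 2.21e-06). Its alpha2delta subunit Cacna2d1 had 16836 and 4807, against 48.5, 1223 and 19015, the highest being the BIIB array labelled liver (2.98 ± 0.45, adjusted p = 3.52e-05). Cacnb2, the beta subunit found with Cacna1c in heart, had 402 and 1416, against at most 958, so its BIIB value lay within the range of the others (1.96 ± 0.53, adjusted p = 0.0109).

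Repolarising potassium channels followed. Kcnd2 had 1492 and 2128, above all arrays other than those labelled liver (2.05 ± 0.43, adjusted p = 0.00149). Its partner Kcnip2, required for the transient outward current in mouse heart, had 487 and 4911, against at most 2545 (2.88 ± 0.67, adjusted p = 0.0033). Kcnq1 had 1787 and 3055, against at most 2477 (1.96 ± 0.47, adjusted p = 0.00402), and Kcne1, its partner in the slow delayed rectifier, 631 and 206, against at most 312 (1.32 ± 0.39, adjusted p = 0.0176). Kcna5, an ultrarapid delayed rectifier, had 654 and 2483, against at most 1100 (1.92 ± 0.44, adjusted p = 0.00316). Kcnh2, the rapid delayed rectifier pore, had 363 and 4554, against at most 2609, and was the least certain of these (1.71 ± 0.58, adjusted p = 0.0413).

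Among inward rectifiers, Kcnj8, the pore of ATP-sensitive channels in vessels and heart, had 13628 and 3350, against 656, 1251 and 4707 (2.10 ± 0.36, adjusted p = 0.000166). Kcnj3 and Kcnj5, which together form the acetylcholine-activated channel of the atria, had 653 and 2478, and 277 and 677, against at most 1573 and 235 (1.69 ± 0.42 and 1.36 ± 0.41). Both heart values of Kcnj5 were above every other array, while the BIIB value of Kcnj3 was not. Kcnj2, a strong inward rectifier of ventricular muscle, had 29.8 and 467 and was not called (0.82 ± 0.40, adjusted p = 0.161). Kcnj11 and Kcnj12 were not called either (0.58, adjusted p = 0.498, and 1.14, adjusted p = 0.0826). The voltage-gated pores Kcna4 (-0.01, adjusted p = 0.99) and Kcnd3 (0.0023, adjusted p = 0.999) and the calcium pores Cacna1d (-0.74, adjusted p = 0.591), Cacna1g (0.76, adjusted p = 0.289) and Cacna1h (0.61, adjusted p = 0.377) were also not called in heart.

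Scn10a, known from sensory neurons, had 613 and 871, against at most 477 (1.51 ± 0.46, adjusted p = 0.0224). Cacna1s, the L-type pore of skeletal muscle, had 817 and 587, against at most 970 in the embryo (1.37 ± 0.44, adjusted p = 0.0309). Skeletal muscle markers summed to 198683 and 229260 in heart and to 742663 and 575392 in embryo, against at most 21622 in the other 6 tissues. In heart, however, nearly all of the sum came from Acta1 (28888 and 86062) and Ckm (168654 and 141829). The highest heart value of any other marker on this list was 543, for Mylpf. The part of skeletal muscle in the Cacna1s result was not tested. With the arrays labelled liver and brain left out, heart had 18 higher genes, 14 of them the same. Cacna1s was then not called (1.00, adjusted p = 0.16), and Cacng8, Kcnj14, Kcnn2 and Kcnn3 were added.

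**Figure D4:**
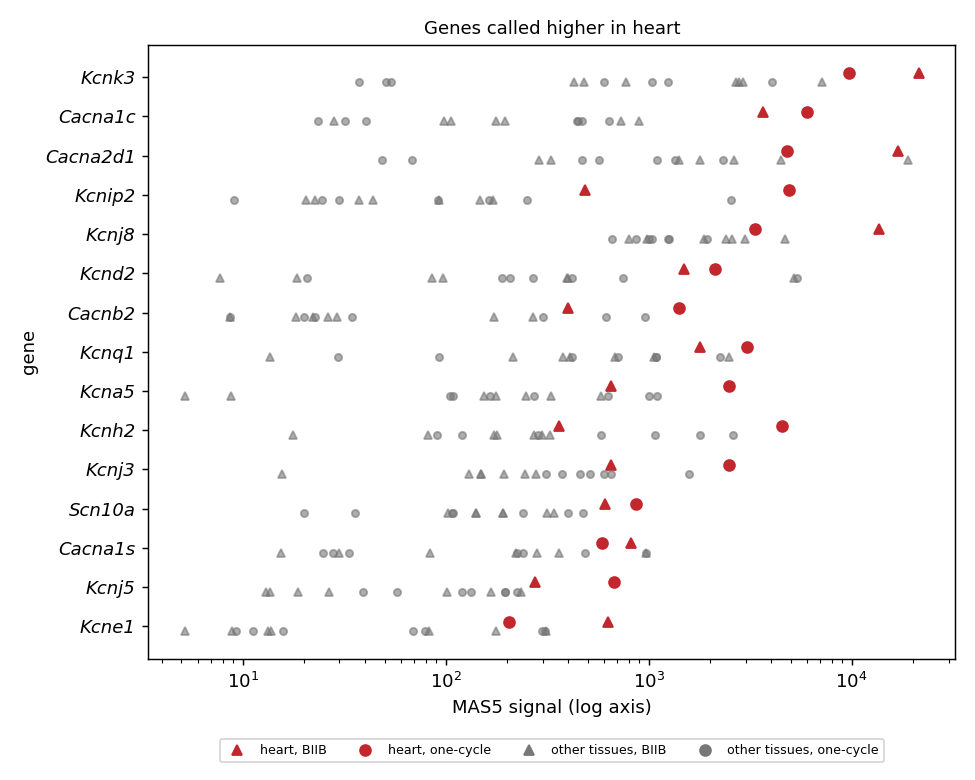
MAS5 signal on a logarithmic axis for the 15 genes called higher in heart, 1 row a gene, with the 2 heart arrays in red and the 14 others in grey (triangles BIIB, circles one-cycle). Kcnk3, Cacna1c, Kcnj5 and Scn10a have both red points to the right of all grey ones, and the red points of Kcnip2 and Kcnh2 lie far apart, at 487 and 4911 and at 363 and 4554.

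Several heart calls were lost when 1 heart array was left out. This leaves the tissue with 1 array and widens the SE, so a lost call alone does not show that the 2 arrays disagreed. Without the one-cycle heart array 7 genes were called higher, not 15, and Cacnb2, Kcna5, Kcnh2, Kcnip2, Kcnj3 and Kcnq1 were among those lost (log2 changes 1.5, 1.42, 0.72, 1.66, 1.48 and 1.65, adjusted p 0.21, 0.136, 0.606, 0.242, 0.114 and 0.117). Without the BIIB heart array, Kcne1 and Kcnj8 lost their calls (0.65 and 1.51). Scn10a, Cacna1s and Kcnj5 lost the call without either array. Their log2 changes were 1.815, 1.175 and 1.658 without the BIIB array, and 1.21, 1.56 and 1.057 without the one-cycle array. Kcnk3, Cacna1c, Cacna2d1 and Kcnd2 kept it without either. Genes called in heart in either direction had 12 other probe sets, of which 11 changed in the same direction and 4 were also called. Those of Cacna2d1 and Kcnip2 had 30.3 and 35.2 on the BIIB heart array and 1157 and 1028 on the one-cycle heart array. Lower in heart were Kcnj15 (-1.92), Kcnk1 (-1.82), Kcnk5 (-1.81), Cacng1 (-1.68), Kcnab2 (-1.37), Kcnab1 (-1.31), Cacng5 (-1.20) and Scn3b (-1.16), of which the first 4 were also called with the arrays labelled liver and brain left out. Each of these 8 lost its call when 1 heart array was left out, Kcnj15 without the BIIB array (-1.44, adjusted p = 0.178), Kcnk5 without the one-cycle array (-1.40, adjusted p = 0.147) and the other 6 without either.

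Kidney had 3 higher genes, and each stood above all 14 other arrays. No further gene did, so this held for 3 of the 94 genes, a share close to the 2.8% of all probe sets. Kcnj15, an inward rectifier of the tubule, had 34705 and 16924 in kidney, against a lowest, median and highest of 6.80, 108 and 5114, the highest being the BIIB lung array (6.23 ± 0.46, adjusted p = 1.46e-09). Kcnj1, the pore through which the thick limb and collecting duct secrete potassium, had 10300 and 6523, against 5.10, 19.1 and 249 (5.69 ± 0.40, adjusted p = 6.25e-10). No other array came near its kidney values. Kcnk5, a leak pore of the proximal tubule, had 1371 and 4069, against 10.9, 363 and 1191 (2.66 ± 0.44, adjusted p = 0.000102). All 3 kept their calls without either kidney array.

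Further genes known in tubules were not called in kidney against the other 7 tissues. Kcnk1 had 1045 and 4808 (1.41 ± 0.57, adjusted p = 0.09), Kcne1 had 312 and 308 (1.09 ± 0.39, adjusted p = 0.051) and Kcnq1 had 686 and 1083 (0.45 ± 0.47, adjusted p = 0.57). With the arrays labelled liver and brain left out, Kcnk1 was called higher (1.65 ± 0.53, adjusted p = 0.032), and so was Cacnb4 with 659 and 694 in kidney (1.84 ± 0.47, adjusted p = 0.00734).

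The largest decreases in kidney were in the following 4 genes. Kcnk3 had 481 and 51.0, against a median of 1967 on the others (-2.43 ± 0.34, adjusted p = 1.46e-05). Kcnn4, a calcium-activated pore of blood cells and epithelia, had 29.8 and 287, against a median of 708 (-2.42 ± 0.42, adjusted p = 0.00019), and lost the call without the BIIB kidney array (-1.42, adjusted p = 0.0886). Scn3b had 46.8 and 163, against a median of 348 (-2.40 ± 0.40, adjusted p = 0.000125). Cacna1c had 28.1 and 31.9, against a median of 446 (-1.88 ± 0.46, adjusted p = 0.00489). It lost the call without either kidney array, although its change stayed at -1.89 and -1.86. All 4 overlapped the low end of the other arrays.

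The heart, kidney and labelled liver arrays were also set against each other. Between heart and the arrays labelled liver, 7 genes were higher (11.1% of all probe sets) and 29 lower (11.9%) in heart. Higher in heart were Kcnk3 (3.29), Kcnq1 (3.15), Kcnj8 (2.90), Cacna1c (2.45), Cacna1s (2.38), Scn10a (2.05) and Kcne1 (1.66). Cacna1c and Scn10a lost this call without the one-cycle array of either tissue, and Kcne1 without the BIIB array of either. Cacna2d1 and Kcnd2, called in both tissues against the rest, were not among the genes called between them. Cacna2d2 was called lower in heart by its brightest probe set (-1.76) and higher by another of its probe sets (1.67, adjusted p = 0.0204), so its direction was unsettled.

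Between kidney and the arrays labelled liver, 5 genes were higher (10.9% of all probe sets) and 37 lower (12.1%) in kidney. The 5 were Kcnj15 (6.62), Kcnj1 (5.86), Kcnk5 (3.77), Kcnq1 (1.83) and Kcne1 (1.45). The last 2, partners in one channel, were thus higher than on the arrays labelled liver in both heart and kidney, and these 2 comparisons share the arrays labelled liver. In kidney, Kcnq1 and Kcne1 lost these calls when single arrays were left out, and the 5 were 3 without the BIIB kidney array or without the one-cycle array labelled liver.

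Between heart and kidney, 14 genes were higher (8.59% of all probe sets) and 4 lower (8.84%) in heart. The largest increases in heart were Kcnk3 (5.47 ± 0.45), Cacna1c (4.96 ± 0.61), Cacna2d1 (4.21 ± 0.59), Kcnh2 (3.01 ± 0.77) and Kcnip2 (2.99 ± 0.88). Lower in heart were Kcnj15 (-7.13 ± 0.61), Kcnj1 (-5.66 ± 0.53), Kcnk5 (-3.92 ± 0.58) and Kcnk1 (-2.82 ± 0.75). The same 14 and 4 genes were called with the arrays labelled liver and brain left out. The 14 were 6 without the one-cycle heart array, 9 without the BIIB and 6 without the one-cycle kidney array, and 3 without a protocol term. Kcnk3, Cacna1c and Cacna2d1 kept their calls without any 1 of the 4 heart and kidney arrays, while Kcnh2, Kcnip2 and Kcnk1 lost theirs without the one-cycle array of either tissue.

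The other tissues had smaller sets. On the arrays labelled brain 1 gene was higher, Kcnn2, a small-conductance calcium-activated pore, with 4742 and 2404 (2.38 ± 0.40, adjusted p = 7.03e-05). It was as bright on the arrays labelled liver, with 5489 and 2612 (2.56 ± 0.40, adjusted p = 2.62e-05), while the other 6 tissues had at most 1494, in heart. Lowest there relative to the rest were Cacna2d1 (-2.77), Kcnn4 (-2.75), Kcnk1 (-2.37) and Kcnk2 (-2.30). Kcnk1 was -3.65 without the BIIB array and lost its call without the one-cycle array (-1.09, adjusted p = 0.328). The median log2 change over all probe sets was -0.302 here, and -0.0992 after quantile normalization.

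In embryo 3 subunit genes of the skeletal muscle calcium channel were called higher. Cacng1, its gamma subunit, had 8186 and 4674, against 17.2, 172 and 714 (4.41 ± 0.47, adjusted p = 4.27e-07), Cacnb1, its beta subunit, 3445 and 1664, against at most 1085 (2.85 ± 0.57, adjusted p = 0.00109), and Cacna1s, its pore, 968 and 970, against at most 817 (1.84 ± 0.44, adjusted p = 0.00502). All 6 values were above the other arrays, and 6 of 7 skeletal muscle markers were highest in embryo too. The 4 other probe sets of genes called in embryo changed in the same direction, but none was called. Those of Cacnb1 had 112 and 691, and 200 and 45.8, in embryo, below 1685 on an array labelled liver and 447 in heart. Cacng1 kept its call without either embryo array. Cacnb1 lost its call without the BIIB array (2.10), and Cacna1s without either, although its change stayed at 1.886 and 1.805. Cacng4 had 2060 and 1734 (2.83 ± 0.43) and Kcne1l 797 and 1422 (2.50 ± 0.42). Scn3b (1.92) and Kcnn4 (1.77) made up the 7. Scn3b lost its call without the one-cycle embryo array (1.39), and Kcnn4 without either embryo array (1.658 and 1.885). Kcnn4 also lost it with the arrays labelled liver and brain left out (1.22, adjusted p = 0.0528). Kcnn2 was called lower (-1.36), but not without the one-cycle embryo array (-0.76, adjusted p = 0.439) or with the arrays labelled liver and brain left out (-0.56, adjusted p = 0.487). With quantile normalization 7 genes were higher and 3 lower in embryo, against 7 and 1 in the fit above.

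Lung was the brightest tissue for Scn3b, the sodium channel beta subunit, with 7528 and 14835, against 46.8, 274 and 7513, the highest being an array labelled liver (3.99 ± 0.40, adjusted p = 2.46e-07). Kcne2, a single-span partner of Kcnq and Kcnh pores, had 5190 and 2793, against at most 927 (3.98 ± 0.44, adjusted p = 9.35e-07). Kcnj15 had 5114 and 1989, below kidney but above the other tissues (2.95 ± 0.46, adjusted p = 7.02e-05). Scn7a, a sodium-sensing relative of the pores, had 410 and 3021, against at most 566 (2.30 ± 0.42, adjusted p = 0.000401), and lost the call without the one-cycle lung array (1.62, adjusted p = 0.0721). Cardiomyocyte markers summed to 234426 and 116746 in lung, against 3421727 and 1941343 in heart, 205458 and 202149 in embryo and at most 5826 in kidney, ovary, spleen and the arrays labelled liver and brain. Their part in the lung result for Kcnq1 (2477 and 2258, 1.98 ± 0.47, adjusted p = 0.00394) was not tested. Kcnq1 lost this call without either lung array (log2 changes 1.80 and 2.15). Cacna1c, the heart pore, had 732 and 472 in lung and was not called (0.65, adjusted p = 0.397). Kcnmb1 was called higher (1.65), but not with the arrays labelled liver and brain left out (1.45, adjusted p = 0.0518). The largest decreases in lung were in Kcnj10 (-1.65), Kcnd2 (-1.64), Kcnab1 (-1.56) and Kcna5 (-1.53). Of these, only Kcna5 was still called with the arrays labelled liver and brain left out.

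In ovary, Kcne3, a small partner of Kcnq1, had 1158 and 2465, against at most 770 (2.40 ± 0.48, adjusted p = 0.00139), but lost the call without the one-cycle ovary array (1.73, adjusted p = 0.145). Kcnk3 had 7170 and 4052, below heart (2.23 ± 0.34, adjusted p = 8.66e-05). Kcnab3 (1.89), Kcnab1 (1.75), Kcnk2 (1.66) and Kcnmb2 (1.44) were also higher, and each of these 4 lost the call without either ovary array. Smooth muscle markers summed to 185467 and 124536 in ovary, the highest of the 8 tissues, and their part in these results was not tested. The largest decreases in ovary were in Kcnj15 (-2.26), Scn3b (-1.88), Kcna1 (-1.77) and Kcnc1 (-1.35). Of these, only Kcnj15 and Scn3b were still called with the arrays labelled liver and brain left out.

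Spleen had a single strong gene. Kcnn4, the calcium-activated potassium pore that lymphocytes use during activation, had 28433 and 17152, against 29.8, 590 and 3763 (4.96 ± 0.42, adjusted p = 1.2e-08). Kcnab2 had 836 and 2250, below the arrays labelled liver (1.28 ± 0.41, adjusted p = 0.0194), and lost the call without the one-cycle spleen array. Kcna3, the voltage-gated pore of T cells, had 234 and 458 and was not called (0.68, adjusted p = 0.287). Lowest relative to the rest were Kcnk1 (-2.60), Kcnk3 (-2.49), Cacna1d (-2.46) and Kcnq1 (-2.41). Kcnk1 was -3.87 without the BIIB spleen array and lost its call without the one-cycle one (-1.33). Cacna1d lost its call without either (-1.75 and -3.18). Cacna1d was read very differently by the protocols, with 30398 (BIIB) and 250 (one-cycle) in kidney and 10930 and 195 on the arrays labelled brain, and another of its probe sets was not called in spleen (0.12, adjusted p = 0.881).

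Counted by tissue, 14 genes were called higher in 2 tissues and 1, Scn3b, in 3 (the arrays labelled liver, embryo and lung). Besides Cacna2d1 and Kcnd2, shared by the arrays labelled liver and heart, the pairs were Kcnj15 in kidney and lung, Kcnk3 in heart and ovary, Kcnq1 in heart and lung, Cacna1s in heart and embryo, Kcnn4 in embryo and spleen, Kcnn2 on the arrays labelled liver and brain, and, each with the arrays labelled liver, Cacng4 and Kcne1l in embryo, Kcnab1, Kcnab3 and Kcnk2 in ovary and Kcnab2 in spleen. No gene was called higher in both heart and kidney, or in kidney and on the arrays labelled liver. Of the 94 genes, 25 were called in no tissue in either direction, and 15 stayed under 500 on all 16 arrays. These 25 include Scn3a, Scn9a and Scn11a, Cacna1e and Cacna1f, Kcna2, Kcna3 and Kcna7, and the inward rectifiers Kcnj2, Kcnj6, Kcnj11, Kcnj12 and Kcnj14. Without detection calls, how far background limits such low values was not tested.

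Several genes that lie side by side were high in different tissues. There were 17 pairs of these genes with at most 3 protein-coding genes between them, 15 with none, in 28 genes. On chromosome 9, Kcnj5 (heart) adjoins Kcnj1 (kidney), which had 11 and 75.2 in heart and 10300 and 6523 in kidney. On chromosome 6, Kcna5 (heart) adjoins Kcna1, and Kcna1 adjoins Kcna6 (both on the arrays labelled liver). On chromosome 11, Cacng1 (embryo) adjoins Cacng4 (embryo and the arrays labelled liver), and Cacng4 adjoins Cacng5 (the arrays labelled liver). On chromosome 2, Scn3a (no tissue) adjoins Scn2a (the arrays labelled liver), and Scn1a (the arrays labelled liver), Scn9a (no tissue) and Scn7a (lung) follow one another.

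Genes that work with these channels were counted beside them, 44 in all. On the arrays labelled liver 15 were higher and 8 lower, where 12.5% and 13.3% of all probe sets were. In heart 9 were higher and 7 lower (8.17% and 7.97% of all probe sets), and in kidney 9 and 11 (7.81% and 8.09%). On the arrays labelled liver, 6 of 7 partners and anchors of sodium channels were higher, among them Cntn1 (5.84 ± 0.43) and Fgf14 (2.36 ± 0.48), and so was Dpp6, a partner of Kcnd pores (4.62 ± 0.39). In heart, 6 of 12 genes of calcium release and handling were higher, among them the release channel Ryr2 (6.15 ± 0.41) and the pump Atp2a2 (4.92 ± 0.26), as were Abcc9 (3.49 ± 0.55) and Abcc8 (2.47 ± 0.49), the regulatory subunits that join Kcnj8 or Kcnj11. In kidney, 6 of 9 genes of a list of epithelial transport and tubule genes were higher. Among them was Slc12a1, the cotransporter that works beside Kcnj1 in the thick limb (7.19 ± 0.41). Umod, Slc12a1, Slc12a3 and Aqp2 of this list were also kidney markers above, and Pln of the calcium handling list a cardiomyocyte marker. Their calls thus repeat the marker result. In lung all 3 subunits of the epithelial sodium channel were higher (Scnn1g 4.72 ± 0.41). These lists were chosen with earlier results of these data known, and their counts were not tested against the shares over all probe sets.

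How far the protocol moves these genes was seen in universal RNA, where 4 BIIB arrays from 500 pg were set against 4 one-cycle arrays from 1 ug. With BIIB, 5 of the 94 genes were higher (9% of all probe sets) and 12 lower (22%), while quantile normalization gave 9 and 2, with Cacna1f and Cacng7 the lower ones. Kcnn4 had 6570, 7723, 10754 and 10303 with BIIB, against 3874, 3817, 4190 and 3381 with one-cycle (log2 change 1.16 ± 0.17, adjusted p = 6.8e-05). Cacna2d1 had 1377, 3284, 1434 and 1398, against 693, 640, 560 and 544 (1.35 ± 0.28, adjusted p = 0.00149). Neither gene's groups overlapped. The others higher with BIIB were Cacna1a (1.39), Cacna1d (1.12) and Kcnk3 (1.12).

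Kcnab2 had 1326, 702, 455 and 889 with BIIB, against 2214, 1856, 1659 and 1795 with one-cycle (-1.12 ± 0.27, adjusted p = 0.00385). All 4 BIIB values were below the one-cycle values. The 12 lower genes were Cacna1f, Cacng7, Kcnh2, Kcnj6, Kcnk5, Kcnj4, Kcnab2, Kcnd1, Kcnj3, Cacna1g, Kcnmb2 and Kcnj10, in order of size. Kcnh2 had 113, 17.1, 311 and 533 with BIIB, against 695, 726, 613 and 766. In heart it had 363 (BIIB) and 4554 (one-cycle), but on the arrays labelled brain 325 and 91.1. Kcnip2, with heart values of 487 and 4911, was not called in universal RNA (0.62). The part of the protocol in these heart values was not tested. The median SD of the 94 genes was 0.497 with BIIB and 0.324 with one-cycle on the log2 scale. Different probe sets of a gene could differ here, since another Cacna1d probe set was called lower (-1.36) and other probe sets of Cacna1a, Cacna2d1, Kcnj6, Kcnk3, Kcnk5 and Kcnn4 changed in the other direction without a call.

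**Figure D5:**
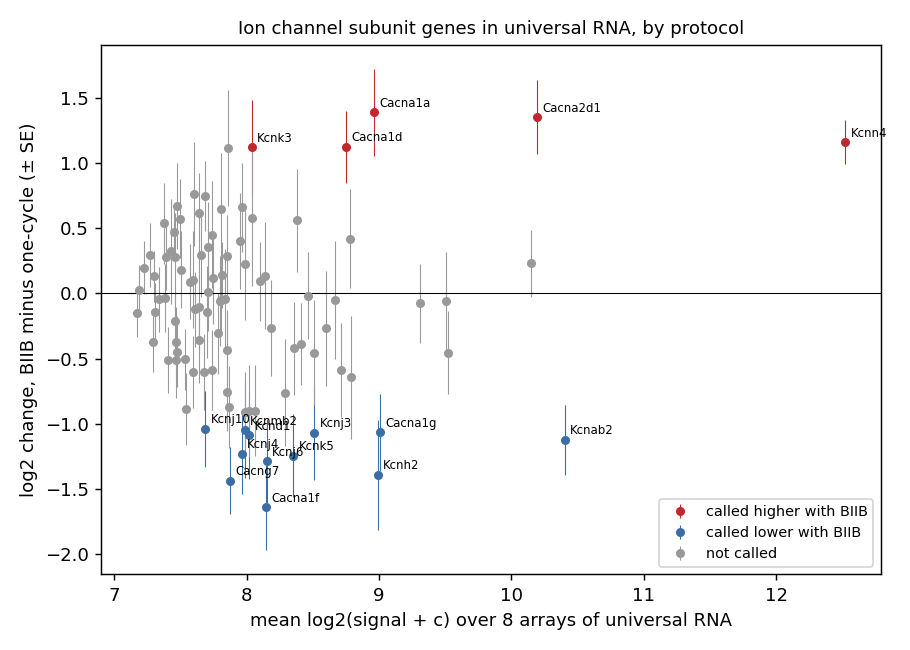
Log2 change of BIIB minus one-cycle in universal RNA (error bars, SE) against mean log2(signal + c) for the 94 genes, 4 arrays a protocol. The 5 genes called higher with BIIB (red) have changes from 1.12 to 1.39, and the 12 called lower (blue) from -1.04 to -1.64.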

How the data were processed

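The deposited values were MAS5 signal intensities, 1 for each probe set and array, on a linear scale, per the submitters' processing notes, which gave no MAS5 version or settings. From the values, the mean of each array without its top and bottom 2% lay between 2500.23 and 2502.45, so the authors had scaled the arrays to 1 level. Detection calls were not used here. Each array was brought to a trimmed mean of 2501, and log2(signal + c), with c at 5% of that mean, was fitted with limma 3.58.1 (R 4.3.3, lmFit and eBayes with a variance trend) on the 16 tissue arrays, with tissue and protocol as terms and 7 residual degrees of freedom. Each tissue was set against the mean of the other 7 and 3 pairs against each other, two-sided, with Benjamini-Hochberg adjustment over 22626 probe sets (64 control probe sets left out). Universal RNA was fitted alike, without further terms. Dim probe sets were kept, since a gene bright in 1 tissue has a low mean. Fold changes of dim genes are understated by this constant. The number of arrays limits the precision.

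Symbols came from GEO's platform annotation, which gave 1 symbol for 20380 probe sets and several for 691, and all 94 symbols matched RefSeq by Entrez number. Genes were named in the text by a fixed rule: up to 20 largest increases on the arrays labelled liver, 12 in heart and kidney, 4 in each other tissue, 4 largest decreases a tissue, and listed genes of brain, heart, kidney and other tissues. Further genes were named to complete a count, after their values were seen. The genes, marker lists and rules were chosen with earlier results of these data known. The fit was also run on simulated data, with independent normal noise and added changes of known size. That noise was simpler than the spread of real arrays, so this run does not give the error rate here. Alternatives were quantile normalization, added constants of 32 and 500, a filter at a mean signal of 500, no variance trend, no protocol term, the mean of a gene's probe sets, leaving out the 4 arrays labelled liver and brain, leaving out each array in turn, and a replicate block for universal RNA.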

Additional observations from a re-analysis of the deposited data

Results flagged for a closer look

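In universal RNA, 34 groups of 4 arrays were examined for an array far from the other 3, and chance gives about 1 in 20 groups such an array. Cacna2d1 had 3284 on 1 BIIB array, against 1377 to 1434 on the other 3. Kcnj6 had 520.4 on 1 one-cycle array, against 256 to 281 on the other 3.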

How the results depend on the processing

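Counts of called genes changed by over 1.5 times under some settings, and the cause was not tested unless stated. A filter at a mean signal of 500 leaves fewer genes to call by construction. It gave 21 higher on the arrays labelled liver, 4 in lung, 3 in ovary, 4 (heart) against the arrays labelled liver and 9 against kidney, and 2 lower in embryo, 19 (heart) and 23 (kidney) against the arrays labelled liver, with 2 higher and 1 lower with BIIB in universal RNA. Without a protocol term, higher calls were 3 in heart, 3 in lung, 1 in ovary, 1 in spleen, 4 (heart) and 3 (kidney) against the arrays labelled liver and 3 in heart against kidney, and lower calls were 5 on the arrays labelled brain, 0 in embryo, 1 in heart, 4 in kidney, 0 on the arrays labelled liver, 0 in lung, 1 in ovary and 8 in spleen. Adding 500 gave 1 higher in spleen, 3 higher in kidney against the arrays labelled liver, 2 higher and 0 lower with BIIB, and 9, 0, 3, 5, 1, 1, 2 and 10 lower on the arrays labelled brain, in embryo, heart and kidney, on the arrays labelled liver and in lung, ovary and spleen. Adding 32 gave 5 lower in heart and 4 in lung, and no variance trend 3 lower in embryo and 8 in ovary. Quantile normalization gave 2 higher on the arrays labelled brain, 3 lower in embryo, and 9 higher and 2 lower with BIIB. The median log2 change over all probe sets was then -0.108 in embryo, -0.0213 in ovary and 0.0336 in universal RNA, and 0.0139, 0.0851 and -0.255 without it. The mean of a gene's probe sets gave 2 lower in embryo and 4 in heart, and turned Cacna2d2 to 0.39 (adjusted p = 0.624) in heart against the arrays labelled liver. Leaving out the 4 arrays labelled liver and brain gave 5 higher in kidney, and 5 lower in heart, 0 in embryo, 2 in lung and 2 in ovary. Leaving out 1 array at a time gave higher calls of 34 to 43 on the arrays labelled liver, 7 to 17 in heart, 3 to 5 in kidney, 1 to 1 on the arrays labelled brain, 4 to 9 in embryo, 4 to 8 in lung, 1 to 8 in ovary and 1 to 2 in spleen, and lower calls of 1 to 6, 1 to 8, 3 to 11, 7 to 21, 1 to 3, 0 to 8, 0 to 5 and 8 to 20 in the same order. Between tissues it gave 5 to 8 higher and 23 to 29 lower in heart, and 3 to 5 and 31 to 38 in kidney, against the arrays labelled liver, 6 to 15 and 3 to 5 in heart against kidney, and 4 to 6 and 9 to 13 with BIIB. A tissue left with 1 array was assumed to vary like the others. In universal RNA same-numbered arrays did not deviate together (correlations from -0.0586 to -0.0299), and the replicate block gave 6 higher and 12 lower. Of 1862 values of single genes under these settings other than leaving out 1 array, 1 reversed and 297 lost a call, 117 of them without the protocol term.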

Other observations

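Sorted cells of the same series held the lymphocyte channels. Kcnn4, the gene that stood out in spleen, had 17795 on the array of 500 sorted T cells and 485.6 on that of 500 sorted B cells, with no replicate of either. From 100 cells it had 7230 and 8567 in T cells, and 1134 and 3243 in B cells. On the 8 arrays of at least 500 sorted RAW267 cells, a mouse macrophage-like line, it lay between 11720 and 19020, with a median of 14850. Kcna3, a voltage-gated pore of T cells that was not called in spleen, had 1076 on the array of 500 T cells and 1018 on that of 500 B cells, 1332 and 217.2 from 100 T cells, 513.1 and 2745 from 100 B cells, and from 9.0 to 227.6 on the 8 RAW267 arrays. Kcnab2 had 1261 and 1289 on the arrays of 500 T and B cells, 611.8 and 118 from 100 T cells, 560.8 and 271.6 from 100 B cells, and from 629.2 to 1140 on the RAW267 arrays.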
